A study of Oryza sativa with 24 samples.

Results

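The genes described here are 9 large chaperones of rice (Oryza sativa) anthers, out of 37910 gene identifiers in each deposited table. They were chosen by identifier, as genes of the HSP101, HSP90, HSP70 and BiP families. No measured value was a criterion, but earlier results of these data were known when they were chosen. They are HSP101 (Os05g0519700), 4 HSP90 genes (HSP81-1, Os08g0500700, and Os09g0482600, Os09g0482400 and Os04g0107900), 3 HSP70 genes (Os03g0821100, Os11g0703900 and Os05g0460000) and BiP1 (Os02g0115900). The names HSP101, HSP81-1 and BiP1 matched the RefSeq gene table by chromosome and relative gene order. Os09g0482600 and Os09g0482400 are the pair HSP81-2 and HSP81-3 on chromosome 9, but the sources used here differ on which is which, so both are given by identifier.

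RNA was measured by sequencing in anthers of 4 rice lines, Nipponbare, Sasanishiki, PL9 and Lambayeque1, which the labels give by name only. Pots of 20 plants stood under glass with days of 25 °C and nights of 19 °C, side shoots were cut away, and anthers were either left untreated or taken from plants held at 12 °C for 4 days. The cold began at the early microspore stage, when pollen mother cells have just finished meiosis, as judged from an auricle distance within 1 cm. The 24 libraries fall into 8 groups of 3, an untreated and a cold group for each line, numbered in the titles. The series text speaks of 2 replicates, and n = 3 follows the titles. Whether the 3 libraries came from different plants is not stated, so p-values reflect library-to-library spread that could be purely technical. The labels do not say when untreated anthers were collected relative to the treatment, so cold and 4 days of development cannot be told apart.

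Chaperones hold other proteins in a usable shape. HSP70 proteins bind exposed stretches of newly made or unfolded proteins and release them with the help of DnaJ partners, and HSP90 proteins take over a narrower set of clients, among them kinases and hormone receptors, late in their folding. HSP101 is the plant cytosolic ClpB, a ring-shaped motor that pulls proteins out of aggregates and is needed for acquired heat tolerance. BiP is the HSP70 of the endoplasmic reticulum, where secreted proteins fold, and its genes are known to respond to unfolded protein in that compartment. Many genes of the cytosolic families are targets of heat shock factors.

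Values are given on the deposited abundance scale, which the file headers call TPM (an abundance scaled by transcript length), although the columns do not add up to the fixed total of that unit. The sums over identifiers were 859303 to 1356925 per library, and 22367 to 24281 identifiers reached a value of 1. Read counts are not given, and sequencing depth cannot be stated. The top 20 identifiers made up 7.36% to 16.1% of an untreated sum and 14.8% to 21.1% of a cold one. PL9 cold libraries 1 and 2 resembled their group least, with median r of 0.915 and 0.901. The summed tapetum and stamen markers (11 genes) lay between 7631 and 21041 in untreated and between 38824 and 109767 in cold libraries, a sum carried by OsC6 and OsC4. Of these 11 genes 6 rose on average, 2 fell (OsMADS3 and OsMADS2) and 3 did not pass. The summed carpel and outer floret markers (7 genes) were 108 to 119 in untreated and 76.8 to 85.1 in cold libraries of Nipponbare, and 116 to 139 and 77.4 to 84.95 in Lambayeque1. The untreated and cold sums overlapped in Sasanishiki and PL9, where they lay between 66.3 and 96.6. Most of this sum was OsMADS14, at a mean of 87.2 in untreated and 66.3 in cold libraries. Of its 6 tested genes 2 rose and 3 fell on average over lines. Over all identifiers, 25.8% passed as higher and 25.6% as lower on that average. The carpel gene OsMADS21 was under 1 in every library. The 3 maturing pollen markers summed to 0.457 to 18.7 in untreated and 0.119 to 1.68 in cold libraries. The part of these shifts in the results below was not tested.

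In cold anthers HSP101 and the HSP70 gene Os05g0460000 fell in all 4 lines, BiP1 rose in Nipponbare, and none of the other 6 genes passed in every line. Averaged over the 4 lines, 7 of the 9 genes fell, 1 rose and 1 did not pass the test, where 51.5% of the 27655 identifiers tested passed, 25.8% as higher and 25.6% as lower. Of the 9 genes, 5 passed in Nipponbare (1 higher, 4 lower), 3 in Sasanishiki, 3 in PL9 and 6 in Lambayeque1, all lower in the last 3 lines. Over all identifiers the share that passed was 27.7% in Nipponbare (12.8% higher, 14.8% lower), 26% in Sasanishiki (13.1% lower), 17.6% in PL9 (8.24% lower) and 24% in Lambayeque1 (12.1% lower). With libraries scaled to the same total, which moved the median log2 change of all identifiers by -0.26 in Nipponbare, -0.13 in PL9 and -0.13 on average, 21.1% of calls were higher in Nipponbare, 37.5% in Sasanishiki, 34.1% in PL9 and 34.7% on average, against 46.4%, 49.6%, 53.1% and 50.2% on the deposited scale. The median log2 change of the 9 genes was -1.15 in Nipponbare, -0.31 in Sasanishiki, -0.44 in PL9 and -0.97 in Lambayeque1, against medians over all identifiers of 0.00, 0.00, -0.00 and 0.01. A log2 change here is the difference of the group means of log2(value + 1), cold minus untreated, and passing means a Benjamini-Hochberg adjusted p under 0.05 over all identifiers in limma. The cold and untreated libraries did not overlap in 7 of the 9 genes in Nipponbare, 5 in Sasanishiki, 3 in PL9 and 8 in Lambayeque1, where 42.9%, 36.9%, 35.2% and 42.7% of all identifiers did not. The tissue is a mixture, so fewer cells of a type and less RNA per cell cannot be told apart.

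**Figure D1:**
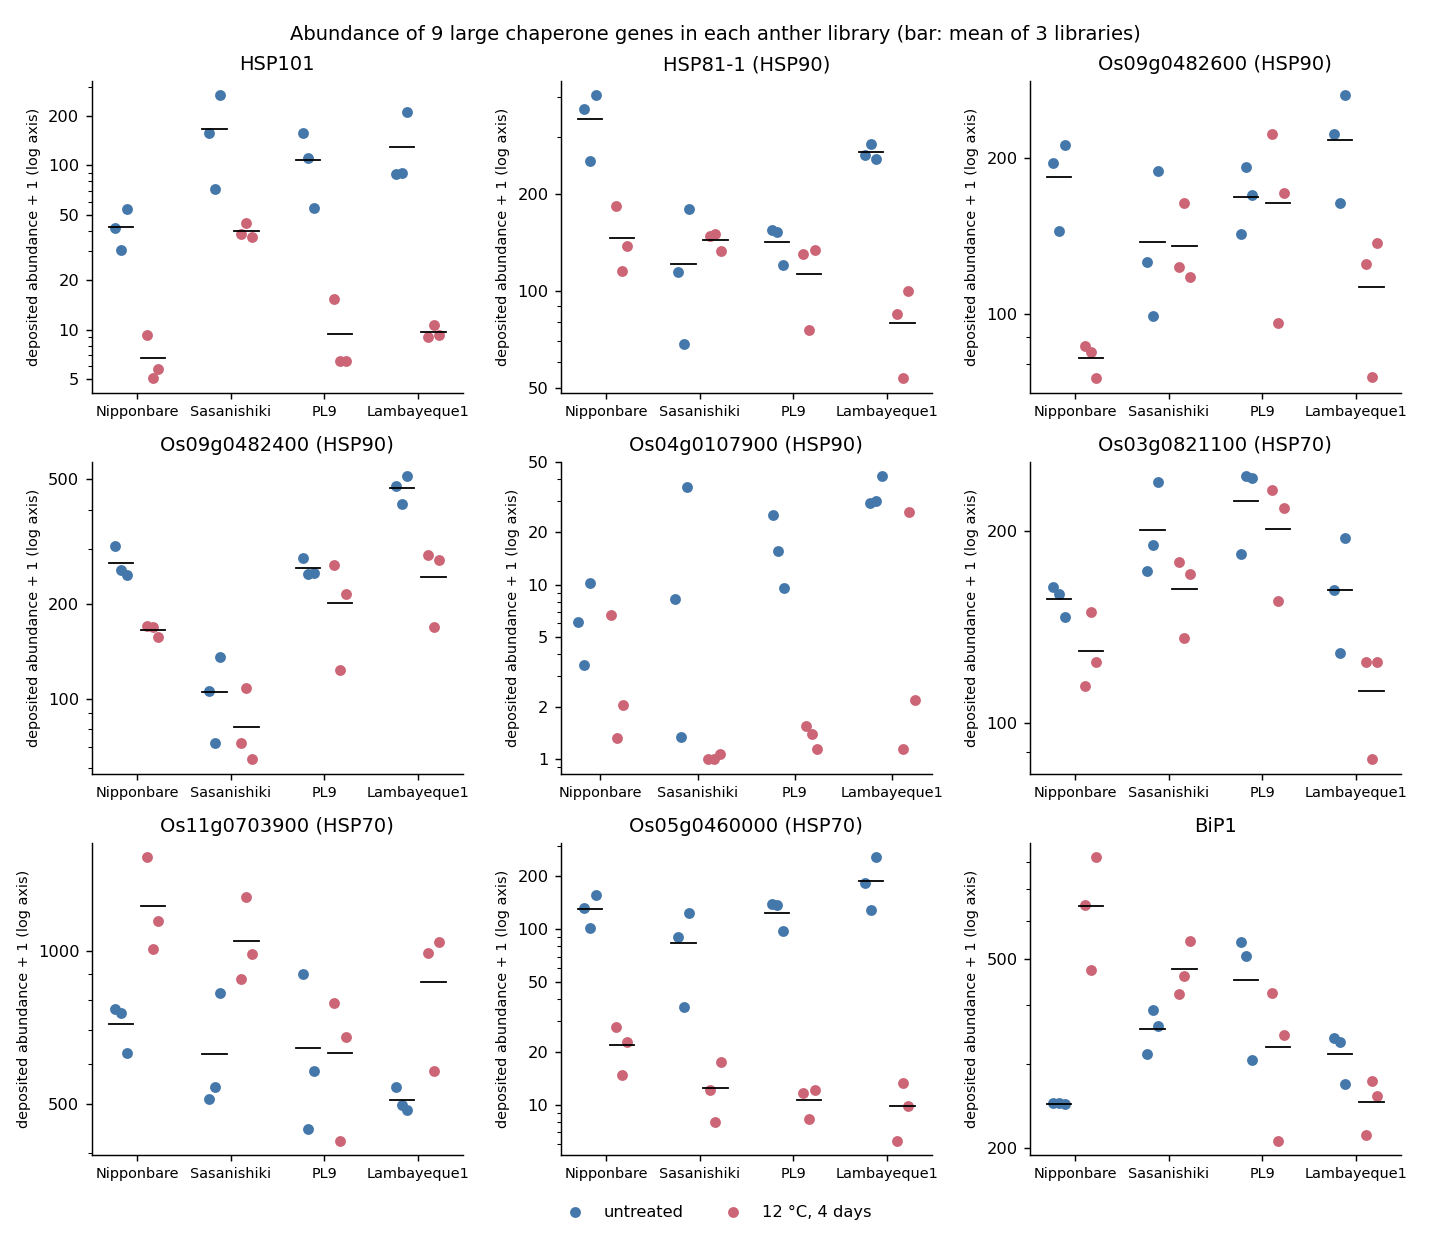
Deposited abundance plus 1 (log axis) of each of the 9 genes in all 24 libraries, by line, with untreated libraries in blue and cold libraries in red; bars mark the mean of 3 libraries and are left out for Os04g0107900, which is listed at 0 in 2 libraries. Cold libraries lie below all untreated libraries of their line in each of the 4 lines for HSP101 and Os05g0460000, and above them in Nipponbare and Sasanishiki for BiP1.

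HSP101, the aggregate-dissolving motor, fell in every line, and by the average over lines it fell by 2.92 on the log2 scale (SE 0.23, adjusted p = 1.02e-08, lower in 4 of 4 lines). The untreated Nipponbare libraries 1 to 3 held 40.4, 29.5 and 53.1 and the cold libraries 8.29, 4.05 and 4.76. In Sasanishiki the untreated libraries held 157, 71.2 and 266 and the cold libraries 37.0, 43.4 and 35.4. The cold Sasanishiki libraries were thus below the untreated ones of their own line but close to the untreated Nipponbare libraries. PL9 went from 156, 109.9 and 53.9 to 14.4, 5.45 and 5.47, and Lambayeque1 from 87.99, 88.5 and 209 to 8.05, 9.68 and 8.30. In no line did the 2 groups overlap, and untreated libraries of one line spread several-fold, with Sasanishiki library 3 and Lambayeque1 library 3 far above their fellows. The 3 cold libraries within Lambayeque1, and those within Sasanishiki, were close to each other.

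The log2 change of HSP101 was -2.66 (SE 0.46, adjusted p = 2.96e-04) in Nipponbare, -1.88 (SE 0.46, adjusted p = 0.00562) in Sasanishiki, -3.51 (SE 0.46, adjusted p = 1.01e-04) in PL9 and -3.62 (SE 0.46, adjusted p = 2.11e-05) in Lambayeque1. Group means fell 7.20-fold, 4.27-fold, 12.6-fold and 14.8-fold in the same order. The Sasanishiki call was lost when that line was fitted alone (adjusted p = 0.0644). HSP101 and Os05g0460000 were the only members that passed as lower in each of the 4 lines, a set that held 2.49% of all identifiers tested. A difference among lines in the size of the fall did not pass the F test (adjusted p = 0.195), which 7.59% of all identifiers passed.

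Levels of HSP101 differed among lines in both conditions (F test, adjusted p = 0.0121 untreated and 7.46e-04 in the cold), where 51% and 33% of all identifiers differed. For scale, between untreated lines the share of all identifiers that differed was 39.4% for Nipponbare and Sasanishiki, 31.5% for Nipponbare and PL9, 8.57% for Nipponbare and Lambayeque1, 23.4% for Sasanishiki and PL9, 32.7% for Sasanishiki and Lambayeque1, and 12.9% for PL9 and Lambayeque1. Between cold lines these shares were 29.9%, 7.3%, 2.75%, 17.3%, 24.9% and 7.17% in the same order. Untreated means ran from Sasanishiki (165 ± 97.8, SD, n = 3) through Lambayeque1 (128 ± 69.5) and PL9 (107 ± 51.0) to Nipponbare (41.0 ± 11.8). Differences among the first 3 did not pass, and Nipponbare was lower than each, by log2 differences of -1.83 (SE 0.46, adjusted p = 0.00388) from Sasanishiki, -1.54 (SE 0.46, adjusted p = 0.0444) from Lambayeque1 and -1.27 (SE 0.46, adjusted p = 0.0425) from PL9. The last 2 calls are weak: 14 and 7 of the 24 fits that left out 1 library lost them (adjusted p between 0.0513 and 0.196, and between 0.0501 and 0.191). For Lambayeque1 these were any of its own 6 libraries, Sasanishiki cold 1, 2 and 3, PL9 untreated 2, and Nipponbare untreated 1, 2 and 3 and cold 3. For PL9 they were PL9 untreated 1 and 2, Nipponbare untreated 1 and 2, Sasanishiki cold 1, and Lambayeque1 cold 1 and 3. The untreated F test itself was lost without Nipponbare untreated library 2 (adjusted p = 0.0719). In the cold, Sasanishiki stood above the other 3 lines, at 38.6 ± 4.26 against 8.68 ± 0.879 in Lambayeque1, 8.45 ± 5.18 in PL9 and 5.70 ± 2.27 in Nipponbare. Its log2 difference was 2.03 (SE 0.46, adjusted p = 0.00258) from Lambayeque1 and 2.19 (SE 0.46, adjusted p = 0.00162) from PL9, and that of Nipponbare from Sasanishiki was -2.61 (SE 0.46, adjusted p = 2.31e-04).

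**Figure D2:**
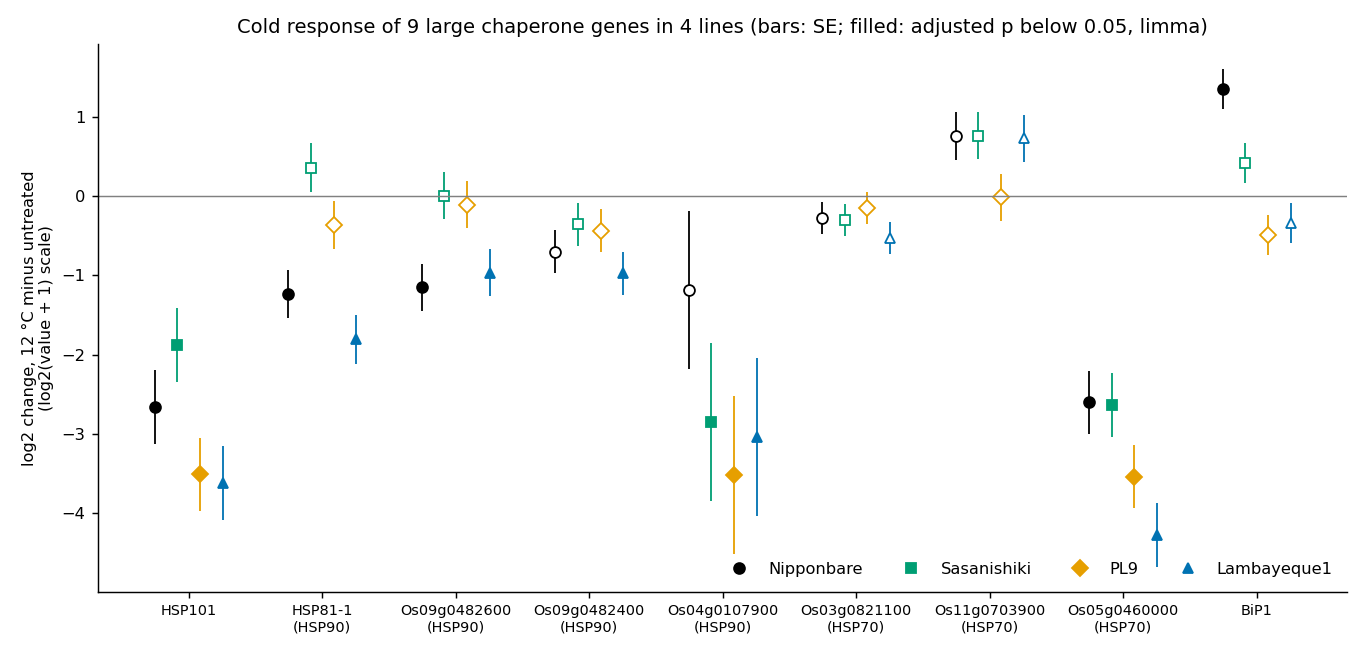
Log2 change from untreated to cold anthers, on the log2(value + 1) scale, of the 9 genes in each of 4 lines, with SE bars; filled symbols passed an adjusted p of 0.05 in limma. HSP101 and Os05g0460000 are filled and below 0 in all lines, Os11g0703900 lies above 0 in 3 lines with open symbols, and BiP1 is filled above 0 in Nipponbare and open in the other lines.

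Of the HSP90 genes, HSP81-1 and Os09g0482600 fell in Nipponbare and in Lambayeque1, and neither passed in Sasanishiki or PL9. HSP81-1, a cytosolic HSP90, fell by 1.23 on the log2 scale in Nipponbare (SE 0.30, adjusted p = 0.00533), from 367, 252 and 405 to 182, 115 and 137 in libraries 1 to 3. In Lambayeque1 it went from 262, 286 and 257 to 83.7, 52.4 and 99.2, a log2 change of -1.81 (SE 0.30, adjusted p = 3.16e-04). Neither line had overlapping groups. Sasanishiki held 114, 67.2 and 179 untreated and 147, 149.6 and 132 in the cold, with a log2 change of 0.36 (SE 0.30, adjusted p = 0.434). PL9 held 154, 151 and 119 and 129, 74.5 and 133, with a log2 change of -0.37 (SE 0.30, adjusted p = 0.446). In both of these lines the groups overlapped.

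The cold response of HSP81-1 differed among lines by the F test (adjusted p = 0.0135). Between pairs of lines, the response of Sasanishiki exceeded that of Lambayeque1 by a log2 difference of 2.17 (SE 0.43, adjusted p = 0.00873), where 3.38% of all identifiers differed. That of Nipponbare was below Sasanishiki by -1.59 (SE 0.43, adjusted p = 0.0361), where 5.57% of all identifiers differed. The second call was lost in 9 of the 24 fits that left out 1 library (adjusted p between 0.0571 and 0.0844) and with these 2 lines alone (0.0834). Those 9 were Sasanishiki untreated 1 and 2 and cold 1, 2 and 3, and Nipponbare untreated 1 and 3 and cold 2 and 3. Untreated anthers differed in HSP81-1 too (F test, adjusted p = 6.40e-04). The untreated means were 341 ± 79.3 in Nipponbare and 268 ± 15.3 in Lambayeque1 (SD, n = 3), whose difference did not pass (adjusted p = 0.58), and 141 ± 19.2 in PL9 and 119.9 ± 56.1 in Sasanishiki, whose difference did not pass either (0.486). Nipponbare exceeded PL9 by a log2 difference of 1.25 (SE 0.30, adjusted p = 0.00446) and Sasanishiki by 1.58 (SE 0.30, adjusted p = 3.88e-04). Untreated Sasanishiki was also below Lambayeque1, by -1.61 to -0.91 over the 24 fits that left out 1 library (adjusted p at most 0.0281). In the cold the 4 means lay closer, from 78.4 ± 23.8 in Lambayeque1 to 144 ± 34.4 in Nipponbare. The F test among lines gave an adjusted p of 0.0674 and passed without Sasanishiki untreated library 2 or 3 (0.0322 and 0.0326) or PL9 cold library 2 (0.0422). Among the pairs, cold Sasanishiki exceeded cold Lambayeque1 by a log2 difference of 0.90 (SE 0.30, adjusted p = 0.0356), a call lost with these 2 lines alone (0.0638) and without Sasanishiki cold 1, 2 or 3 or Lambayeque1 cold 1 or 2 (0.0575 to 0.175).

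The chromosome 9 pair belongs to the same cytosolic HSP90 branch. Os09g0482600 in Nipponbare went from 194, 144 and 211 in untreated libraries 1 to 3 to 85.8, 83.2 and 74.0 in cold ones, a log2 change of -1.15 (SE 0.30, adjusted p = 0.00712). In Lambayeque1 the libraries went from 221, 163 and 264 to 124, 74.4 and 136, a log2 change of -0.97 (SE 0.30, adjusted p = 0.0231). In neither line did the groups overlap. In Sasanishiki the libraries held 125, 98.2 and 188 and 122, 163 and 117, and in PL9 142, 192 and 169 and 222, 95.2 and 171, with overlapping groups and log2 changes of 0.00 (SE 0.30, adjusted p = 1) and -0.11 (SE 0.30, adjusted p = 0.845). The Lambayeque1 call was lost without untreated library 1 (adjusted p = 0.0609), untreated library 3 (0.0992) or cold library 2 (0.135), and with that line alone (0.0638).

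Os09g0482400 was lowest in Sasanishiki in both conditions. Its untreated libraries held 476, 416 and 509.7 in Lambayeque1, 305, 255 and 247 in Nipponbare, 280.5, 249 and 251 in PL9 and 105, 71.5 and 135 in Sasanishiki. All 3 Sasanishiki libraries lay below every library of the other lines. The cold libraries held 285, 169 and 276 in Lambayeque1, 169, 168 and 156 in Nipponbare, 266, 122 and 214 in PL9 and 71.1, 107 and 63.1 in Sasanishiki, again with Sasanishiki lowest. Lines differed in both conditions (F test, adjusted p = 1.87e-05 untreated and 7.22e-04 in the cold). Sasanishiki was below Lambayeque1 by a log2 difference of -2.20 (SE 0.27, adjusted p = 2.84e-06) untreated and -1.58 (SE 0.27, adjusted p = 1.65e-04) in the cold, and below PL9 by -1.36 and -1.27 (adjusted p = 8.51e-04 and 0.0018). Nipponbare exceeded Sasanishiki in all 24 fits that left out 1 library. That log2 difference was 1.16 to 1.62 untreated and 0.90 to 1.28 in the cold (adjusted p at most 0.00362 and 0.0359). Nipponbare and PL9, neighbours in the untreated order, did not pass the test of a difference (adjusted p = 0.927). The gap of PL9 to Lambayeque1, -0.84 (SE 0.27, adjusted p = 0.0468), was lost in 17 of the 24 fits that left out 1 library (adjusted p between 0.0506 and 0.116). It held without Sasanishiki untreated 2 or 3 or cold 2 or 3, Lambayeque1 cold 2, or PL9 cold 1 or 2.

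Cold lowered Os09g0482400 in Lambayeque1, with a log2 change of -0.97 (SE 0.27, adjusted p = 0.0135), and on average over lines (-0.62 (SE 0.14, adjusted p = 8.49e-04)). The Lambayeque1 call was lost without its untreated library 3 (adjusted p = 0.0503) or its cold library 2 (0.0875). In Nipponbare the groups did not overlap and the log2 change was -0.70 (SE 0.27, adjusted p = 0.0605). That value passed when the libraries were scaled to the same total (log2 change -1.04, adjusted p = 0.00431), by quantile normalization (0.0146), with Nipponbare alone (0.0182) and in 6 of the 24 fits that left out 1 library, all 6 from other lines (0.0296 to 0.0493). They were Sasanishiki untreated 2 and 3 and cold 2, Lambayeque1 cold 2, and PL9 cold 1 and 2. Sasanishiki and PL9 gave -0.35 (SE 0.27, adjusted p = 0.375) and -0.44 (SE 0.27, adjusted p = 0.283).

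The balance within the chromosome 9 pair depended on the line. The ratio of Os09g0482400 to Os09g0482600 was 0.763 ± 0.0690 in untreated and 0.593 ± 0.0598 in cold Sasanishiki (SD, n = 3). It was 2.21 ± 0.317 and 2.20 ± 0.146 in Lambayeque1, 1.59 ± 0.353 and 1.25 ± 0.0459 in PL9, and 1.51 ± 0.306 and 2.03 ± 0.0671 in Nipponbare. Sasanishiki was thus the line in which Os09g0482600 exceeded its partner, in all 6 libraries. Members of a chaperone family resemble each other in sequence, and kallisto divides reads that match several transcripts by estimation, so how much of such a ratio is the division of shared reads was not tested.

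Os04g0107900, the fourth HSP90 gene, was rare. Untreated libraries held 5.11, 2.48 and 9.22 in Nipponbare, 7.29, 0.343 and 35.2 in Sasanishiki, 23.98, 14.6 and 8.53 in PL9 and 28.2, 29.2 and 40.7 in Lambayeque1. Cold libraries held 5.74, 0.324 and 1.06 in Nipponbare, 0.55, 0.406 and 0.142 in PL9 and 0.154, 25.0 and 1.19 in Lambayeque1, and in Sasanishiki libraries 1 and 2 were listed at 0 and library 3 at 0.0809. Most cold libraries were near the floor, but Lambayeque1 library 2 was close to the untreated libraries of its line. The log2 change was -2.85 (SE 1.00, adjusted p = 0.0411) in Sasanishiki, -3.51 (SE 1.00, adjusted p = 0.0206) in PL9, -3.04 (SE 1.00, adjusted p = 0.0323) in Lambayeque1 and -1.19 (SE 1.00, adjusted p = 0.405) in Nipponbare, where the groups overlapped. On average over lines it was -2.65 (SE 0.50, adjusted p = 2.03e-04).

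Each of the 3 calls of Os04g0107900 within a line hung on single libraries. The Sasanishiki call was lost without untreated library 1 (adjusted p = 0.109), untreated library 3 (log2 change -1.70, adjusted p = 0.214), or cold library 1, 2 or 3 (0.0937, 0.0835 and 0.0879). The PL9 call was lost without untreated library 1 or 2 (0.0903 and 0.0572) or cold library 2 or 3 (0.0566 and 0.0659). The Lambayeque1 call was lost without untreated library 1, 2 or 3 (0.0615, 0.0649 and 0.0901) or cold library 1 or 3 (0.161 and 0.121). The Sasanishiki call was also lost with a pseudocount of 5 (log2 change -1.46, adjusted p = 0.0817), with no filter (0.0562) and with that line alone (0.175), and the Lambayeque1 call with that line alone (0.103). The size of the change depended on the pseudocount: with 0.1 and 5 it was -4.05 and -1.45 on average, -5.32 and -1.46 in Sasanishiki, -5.08 and -1.88 in PL9, and with 5 it was -1.92 in Lambayeque1.

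The sum of these 4 HSP90 genes fell in Nipponbare, from 799 ± 126 to 392 ± 43.9 (SD, n = 3), a change by -1.02 (SE 0.28, adjusted p = 0.0109) on the log2 scale. The sum fell in Lambayeque1 from 984 ± 88.5 to 442 ± 106, with -1.18 (SE 0.28, adjusted p = 0.00496). It was 375 ± 152 and 357 ± 56.3 in Sasanishiki and 584 ± 32.3 and 476 ± 166 in PL9, with log2 changes of -0.00 (SE 0.28, adjusted p = 1) and -0.36 (SE 0.28, adjusted p = 0.41). The cold sums of the 4 lines lay close together, at 357 to 476 on average, whereas the untreated means ran from 375 to 984. In these 2 lines in which the HSP90 sum fell, the summed carpel and outer floret markers given above were also lower in the cold without overlap. That sum was mostly OsMADS14, and its other members did not all fall. The part of these markers was not tested. A difference between the summed responses of 2 lines did not pass in any of the 6 pairs, the nearest being Sasanishiki minus Lambayeque1 at 1.18 (SE 0.40, adjusted p = 0.112). The sum leaves out Os06g0716700, Os09g0474300, Os08g0487800 and Os12g0514500, which are listed as further HSP90 genes. Their log2 changes were 0.73, 0.45, 0.06 and -0.03 in Nipponbare. In Lambayeque1 they were -0.42, 0.04, -0.22 and -0.41, and none of these values passed.

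**Figure D3:**
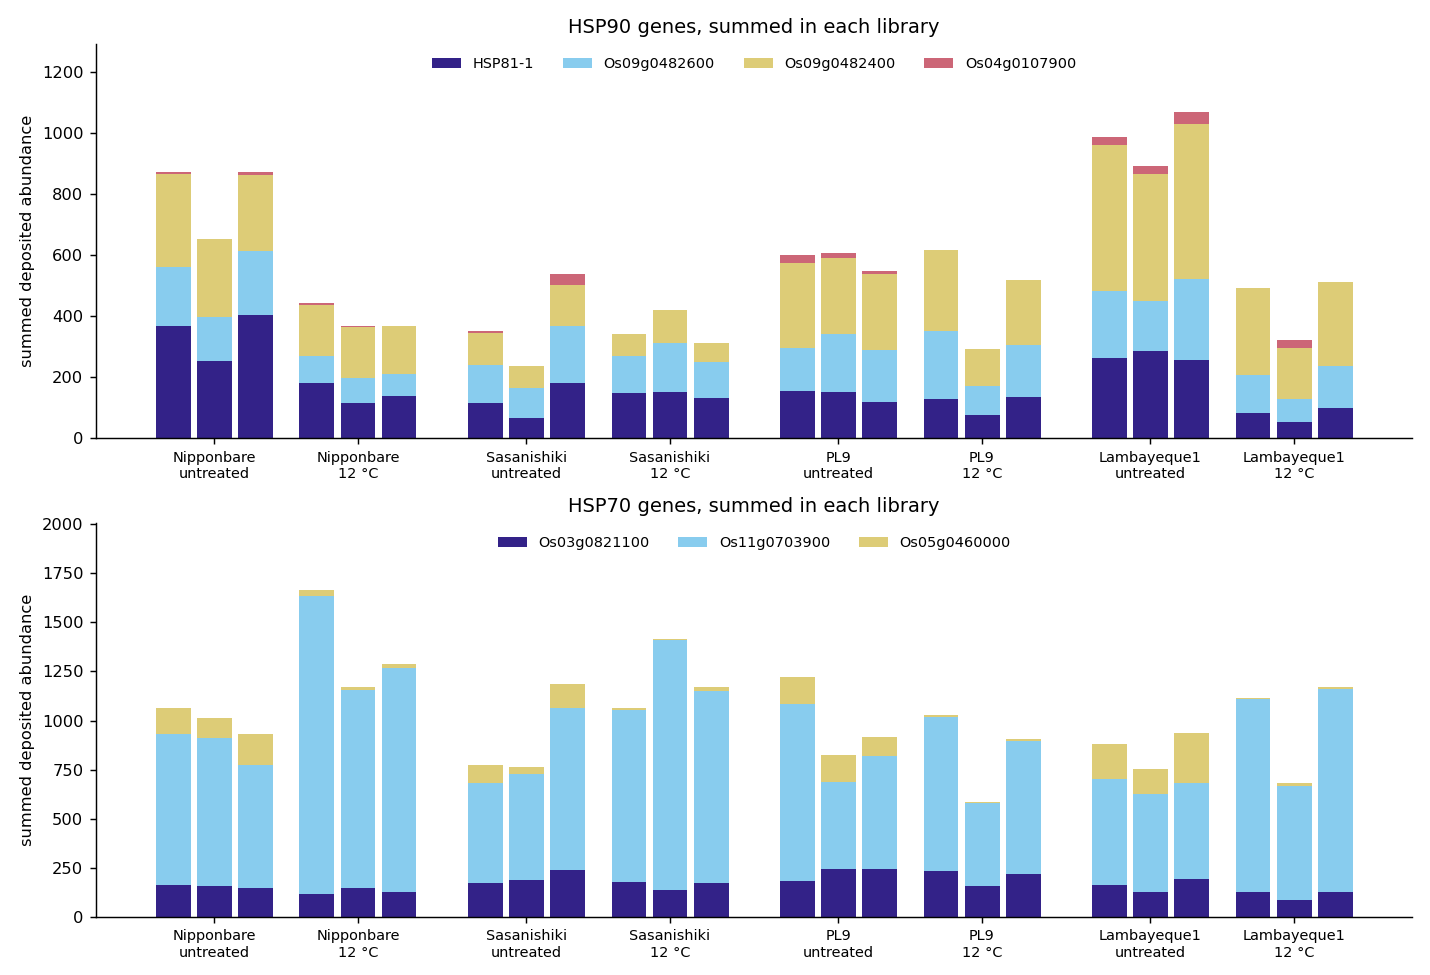
Summed deposited abundance of the 4 HSP90 genes (top) and the 3 HSP70 genes (bottom) in each of the 24 libraries, stacked by gene, 3 bars per group. The HSP90 sums of cold Nipponbare and Lambayeque1 lie below all their untreated libraries, and Os05g0460000 shrinks to a thin band of the HSP70 sum in every cold library.

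The 3 HSP70 genes took different directions in the cold. Os05g0460000 fell in every line, Os11g0703900 rose on average over lines, and Os03g0821100 fell slightly on average. Os05g0460000 held 132, 100.4 and 157 in untreated Nipponbare libraries 1 to 3 and 26.8, 13.8 and 22.0 in cold ones. Sasanishiki went from 89.0, 35.3 and 124 to 11.1, 6.97 and 16.5. The highest cold library of all, Nipponbare library 1, was still below the lowest untreated one, Sasanishiki library 2. PL9 went from 139, 136 and 96.4 to 10.7, 7.34 and 11.2, and Lambayeque1 from 182, 127 and 256 to 5.27, 12.4 and 8.92. Lambayeque1 had the highest untreated and the lowest cold mean.

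Os05g0460000 had log2 changes of -2.60 (SE 0.40, adjusted p = 9.89e-05) in Nipponbare, -2.64 (SE 0.40, adjusted p = 1.25e-04) in Sasanishiki, -3.54 (SE 0.40, adjusted p = 3.34e-05) in PL9 and -4.27 (SE 0.40, adjusted p = 1.13e-06) in Lambayeque1. Group means fell 6.21-fold, 7.18-fold, 12.7-fold and 21.3-fold. Averaged over lines the change was -3.26 (SE 0.20, adjusted p = 5.14e-10), and no fit that left out 1 library lost any of these 5 calls. Differences among lines did not pass the F test for the response (adjusted p = 0.131) or, over all lines, for the levels (adjusted p = 0.0637 untreated and 0.0978 in the cold). The untreated F test passed without Sasanishiki untreated library 3 (0.0179) or Lambayeque1 untreated library 2 (0.0436) and with a pseudocount of 5 (0.0403), and the cold one without Sasanishiki untreated library 2 (0.0399). Among the pairs, untreated Sasanishiki was below untreated Lambayeque1 by -1.30 (SE 0.40, adjusted p = 0.0182) on the log2 scale. That call was lost without Sasanishiki untreated library 2 (-0.78, adjusted p = 0.132) or Lambayeque1 untreated library 3 (0.081), and with these 2 lines alone (0.0599).

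Os11g0703900 was the most abundant of the 9 genes on this per-length scale. Nipponbare libraries went from 768, 753 and 629 to 1523, 1007 and 1144, and Sasanishiki from 510.0, 539 and 826 to 877, 1276 and 982. Lambayeque1 went from 539, 496 and 485 to 987, 580.2 and 1037. In these 3 lines every cold library was above every untreated one. PL9 held 899.9, 445 and 579 untreated and 787, 423 and 677 in the cold, with overlapping groups. The log2 change averaged over lines was 0.56 (SE 0.15, adjusted p = 0.00397).

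Within single lines Os11g0703900 did not pass, with log2 changes of 0.76 (SE 0.30, adjusted p = 0.0644) in Nipponbare, 0.76 (SE 0.30, adjusted p = 0.0669) in Sasanishiki, 0.73 (SE 0.30, adjusted p = 0.0815) in Lambayeque1 and -0.02 (SE 0.30, adjusted p = 0.991) in PL9. The Sasanishiki value passed without Sasanishiki untreated library 3 (log2 change 0.98, adjusted p = 0.0294) or PL9 cold library 2 (0.0492). The Lambayeque1 value passed without its cold library 2 (1.00, adjusted p = 0.0336), by quantile normalization (0.89, adjusted p = 0.0206) and at the same total (0.0492). The Nipponbare value was 0.39 by quantile normalization and 0.42 at the same total, and it passed without Lambayeque1 cold library 2 (0.0493), PL9 untreated library 1 (0.0489) or PL9 cold library 2 (0.0474). A difference among lines in the response did not pass the F test (adjusted p = 0.412). Of the pairs of lines at one condition, cold Nipponbare exceeded cold PL9 by 0.99 (SE 0.30, adjusted p = 0.0491), a call lost in 18 of the 24 fits that left out 1 library (adjusted p between 0.0501 and 0.174).

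Os03g0821100 changed little. Its untreated libraries ranged from 128 to 243 (median 178) and its cold libraries from 86.5 to 231 (median 142). The average log2 change of -0.32 (SE 0.10, adjusted p = 0.0127) passed, while the values in single lines, from -0.53 in Lambayeque1 to -0.16 in PL9, did not. The Lambayeque1 value (adjusted p = 0.064) passed without its untreated library 2 (0.0321) or PL9 cold library 2 (0.0464). In the cold the lines differed (F test, adjusted p = 0.0128), with means of 201 ± 40.7 in PL9, 161 ± 23.2 in Sasanishiki, 128 ± 18.0 in Nipponbare and 111 ± 21.4 in Lambayeque1 (SD, n = 3). Of the 6 pairs PL9 against Lambayeque1 passed, with a log2 difference of 0.84 (SE 0.20, adjusted p = 0.0132), and was lost without Lambayeque1 cold library 2 (0.0707), PL9 cold library 1 (0.0584) or PL9 cold library 3 (0.0654).

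The make-up of the sum of these 3 HSP70 genes shifted in the cold. The sum of the 3 genes had log2 changes of 0.44 (SE 0.26, adjusted p = 0.229) in Nipponbare, 0.45 (SE 0.26, adjusted p = 0.236) in Sasanishiki, -0.25 (SE 0.26, adjusted p = 0.557) in PL9 and 0.17 (SE 0.26, adjusted p = 0.687) in Lambayeque1, none of which passed. Os11g0703900 made up 51.9% to 74.4% (median 66.8%) of the sum in untreated libraries and 72.3% to 91.6% (median 85.8%) in cold ones. Os05g0460000 made up 4.62% to 27.3% (median 12.0%) in untreated libraries and 0.472% to 1.82% (median 1.21%) in cold ones, so its 2 ranges did not meet. The mean share of Os03g0821100 went from 15.5% to 9.7% in Nipponbare, from 22.4% to 13.6% in Sasanishiki and from 18.7% to 11.5% in Lambayeque1, while in PL9 it was 23.6% and 24.3%. Further genes listed as HSP70 are not in this sum. Between untreated and cold libraries the mean of Os01g0840100 went from 279 to 36.9 and that of Os03g0276500 from 331 to 128. That of Os03g0277300 went from 8.73 to 15.2. A sum over more HSP70 genes would thus have other changes and other shares. Reads shared between HSP70 genes, these 3 and others, are divided by estimation, and their part in these shares was not tested.

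BiP1, the HSP70 of the endoplasmic reticulum, rose in Nipponbare and did not pass in the other lines. Nipponbare libraries went from 247, 248 and 246 to 648, 472 and 817, a 2.62-fold rise of the mean and 1.35 (SE 0.25, adjusted p = 6.14e-04) on the log2 scale. The 3 untreated libraries were nearly equal, and the lowest cold one was well above them. Sasanishiki went from 314, 389.7 and 360.2 to 419.7, 458 and 544, with no overlap and a log2 change of 0.41 (SE 0.25, adjusted p = 0.252). PL9 held 541, 505 and 305 untreated and 422, 206 and 345 in the cold, a log2 change of -0.49 (SE 0.25, adjusted p = 0.194). Lambayeque1 held 339, 332 and 271 and 212, 276 and 256, a log2 change of -0.34 (SE 0.25, adjusted p = 0.357). In the last 2 lines the groups overlapped. The average over lines was 0.23 (SE 0.13, adjusted p = 0.133), and it passed without PL9 cold library 2 (0.0303).

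The cold response of BiP1 differed among lines (F test, adjusted p = 0.009). The response of Nipponbare exceeded that of PL9 by a log2 difference of 1.84 (SE 0.36, adjusted p = 0.00585), where 4.57% of all identifiers differed. It exceeded that of Lambayeque1 by 1.69 (SE 0.36, adjusted p = 0.0328), where 0.582% did, but this call was lost in 9 of the 24 fits that left out 1 library (adjusted p between 0.0537 and 0.116). Those were Lambayeque1 untreated 1, 2 and 3 and cold 1 and 3, and Nipponbare untreated 1 and 2 and cold 1 and 3. It was also lost with libraries scaled to the same total (log2 difference 1.34, adjusted p = 0.0885), by quantile normalization (1.24, adjusted p = 0.162) and with a pseudocount of 0.1 (0.0584). The difference from Sasanishiki was 0.94 (SE 0.36, adjusted p = 0.136) and did not pass.

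Nipponbare had the lowest mean of BiP1 among untreated lines and the highest among cold lines. Untreated means were 450.3 ± 127 in PL9, 355 ± 37.9 in Sasanishiki, 314 ± 37.5 in Lambayeque1 and 247 ± 1.04 in Nipponbare (SD, n = 3), with an adjusted p of 0.0577 by the F test. Cold means were 646 ± 172 in Nipponbare, 474 ± 63.6 in Sasanishiki, 324 ± 109 in PL9 and 248 ± 32.6 in Lambayeque1, and these differed (F test, adjusted p = 0.00134). The untreated F test passed without PL9 untreated library 3 (0.0146), PL9 cold library 1 (0.0423) or 2 (0.0246), or Nipponbare cold library 2 (0.0457). Among untreated pairs, Nipponbare was below PL9 by -0.82 (SE 0.25, adjusted p = 0.0187), a call lost without PL9 untreated library 1 or 2 (0.0918 and 0.0746) and with these lines alone (0.0699). In the cold, Nipponbare exceeded Lambayeque1 by a log2 difference of 1.35 (SE 0.25, adjusted p = 0.00372) and PL9 by 1.02 (SE 0.25, adjusted p = 0.0179), and Sasanishiki exceeded Lambayeque1 by 0.93 (SE 0.25, adjusted p = 0.01). The second of these was lost without PL9 cold library 2 (0.0565) or Nipponbare cold library 1 or 3 (0.0574 and 0.12), by quantile normalization (0.079), at the same total (0.0559) and with these lines alone (0.0871), and the third without Lambayeque1 cold library 1 (0.0502). Differences between neighbours in the cold order did not pass, with adjusted p of 0.227 for Nipponbare and Sasanishiki, 0.123 for Sasanishiki and PL9, and 0.507 for PL9 and Lambayeque1.

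Within groups, several of the 9 genes varied together. Pearson's r of the deviations of log2(value + 1) from the group mean, over 24 libraries, was 0.87 for the chromosome 9 pair and 0.76 and 0.75 for HSP81-1 with its 2 members. Os05g0460000 went with Os04g0107900 (0.79) and with HSP101 (0.69), and HSP101 with Os04g0107900 (0.67). Across families, Os11g0703900 went with Os09g0482400 (0.77) and HSP81-1 (0.65), and Os03g0821100 with Os09g0482600 (0.67). Sasanishiki untreated libraries show this plainly, with library 3 highest and library 2 lowest in HSP101, in Os05g0460000 and in Os04g0107900. PL9 cold library 2 and Lambayeque1 cold library 2 were each lowest of their group in HSP81-1, Os09g0482600, Os09g0482400, Os03g0821100 and Os11g0703900. BiP1 had correlations of -0.03 to 0.36 with the other 8 genes. The points share libraries and their scale, and the correlations are a description. Pairs of other genes were not taken for comparison.

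**Figure D4:**
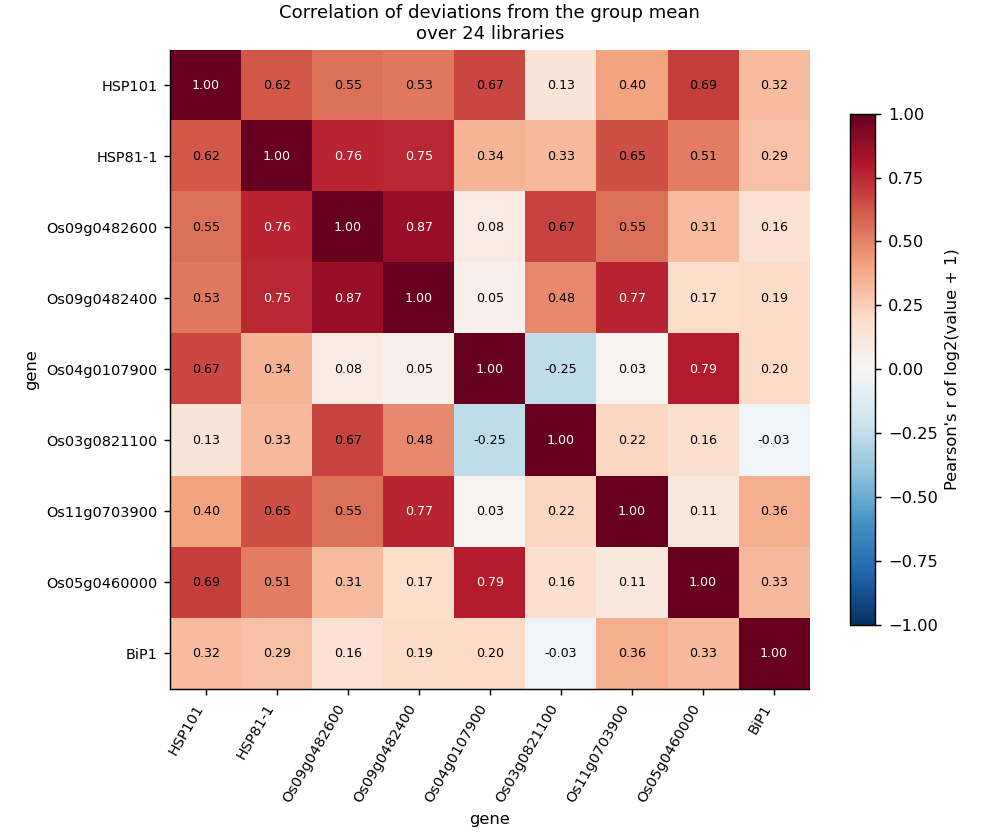
Pearson's r between the 9 genes of deviations from the group mean of log2(value + 1), over 24 libraries, red for positive and blue for negative. The 3 abundant HSP90 genes correlate among themselves (0.75 to 0.87), as do HSP101, Os04g0107900 and Os05g0460000 (0.67 to 0.79), and Os11g0703900 reaches 0.77 with Os09g0482400.

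Over all tested identifiers, the ones most like each gene in level across the 24 libraries (Pearson's r of log2(value + 1), part of which is the shared difference between treatments and lines) were as follows. For HSP101 they were Os04g0511200 (0.93), Os02g0644000 (0.93) and Os03g0745600 (0.92). The first, Os04g0511200, ranged from 14.7 to 125 in untreated and from 0.689 to 42.7 in cold libraries. For Os05g0460000 they were Os05g0562300 (0.97), Os01g0840100 (0.97) and Os07g0661600 (0.97), where Os01g0840100 was itself in the list of other large chaperones. For Os04g0107900 they were Os04g0108101 (0.98), Os02g0259900 (0.95) and Os01g0136000 (0.90), the first with a neighbouring identifier on chromosome 4. For BiP1 they were Os03g0213100 (0.91), Os05g0156500 (0.90) and Os09g0451500 (0.89). HSP81-1 was most like Os10g0496000 (0.88), Os03g0237500 (0.88) and Os06g0253100 (0.88), Os09g0482600 most like Os07g0108300 (0.89), Os11g0210300 (0.84) and Os10g0462900 (0.83), and Os09g0482400 most like Os05g0499400 (0.95), Os06g0570100 (0.94) and Os03g0184400 (0.93). Os03g0821100 was most like Os01g0635400 (0.87), Os08g0500000 (0.86) and Os05g0540300 (0.85), and Os11g0703900, with the lowest values, most like Os09g0463700 (0.81), Os04g0174800 (0.81) and Os06g0638200 (0.79). Of the identifiers named here, Os09g0451500 was in the list of folding genes of the endoplasmic reticulum. Os06g0253100 and Os01g0136000 were in the list of small heat shock proteins.

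The other genes of the folding machinery were read from lists of identifiers, most of which have no checked name. Of 19 tested other large chaperones (HSP70, ClpB and further HSP90 genes), 3 rose and 9 fell on average over lines, with a median log2 change of -0.08 against 0.00 for all identifiers. For these and the following counts on average over lines, the share of all identifiers that passed was 25.8% as higher and 25.6% as lower. Os01g0840100 averaged a log2 change of -2.81 (SE 0.20, adjusted p = 3.70e-09) and Os03g0276500 of -1.24 (SE 0.14, adjusted p = 1.07e-06). Os03g0277300 rose by 0.86 (SE 0.28, adjusted p = 0.0131), as did Os08g0197700 by 1.14 (SE 0.47, adjusted p = 0.0474), a low gene listed at 0 in some cold library whose call was lost in 16 of the 24 fits that left out 1 library (adjusted p between 0.0516 and 0.0941). Of 10 co-chaperones, the helpers of HSP70 and HSP90, 2 rose and 6 fell, with a median of -0.53. Os04g0352400 and Os03g0787300 had the lowest values, at -2.13 (SE 0.58, adjusted p = 0.00451) and -1.99 (SE 0.13, adjusted p = 1.41e-09), and Os12g0498500 and Os02g0535400 the highest, at 1.05 (SE 0.15, adjusted p = 1.23e-05) and 0.51 (SE 0.12, adjusted p = 0.0018).

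Of 7 genes for folding in the endoplasmic reticulum, the compartment of BiP1, 3 rose, 1 fell and 3 did not pass on average. In Nipponbare 3 rose and 0 fell with a median of 0.87, where 12.8% of all identifiers were higher and 14.8% lower. In each of the other lines 1 rose and 1 fell, with medians of 0.45 in Sasanishiki, 0.06 in PL9 and -0.42 in Lambayeque1. Over all identifiers 26%, 17.6% and 24% passed in these lines, with 13.1%, 8.24% and 12.1% as lower. Os03g0832200 and Os07g0246200 averaged log2 changes of 2.70 (SE 0.26, adjusted p = 1.11e-07) and 0.58 (SE 0.17, adjusted p = 0.00706). The gene that fell was bZIP50 (Os06g0622700), a transcription factor of the unfolded protein response, at -1.11 (SE 0.13, adjusted p = 7.58e-07). Of 21 tested heat shock factors 1 rose and 12 fell on average over lines, with a median of -0.45. Over all identifiers 25.8% were higher and 25.6% lower on that average. HSFA2A (Os03g0745000) averaged a log2 change of -4.35 (SE 0.26, adjusted p = 4.66e-10) and HSFB2B (Os08g0546800) of -4.20 (SE 0.26, adjusted p = 4.66e-10), and the one that rose was HSFB4B (Os07g0640900) at 0.52 (SE 0.14, adjusted p = 0.00383). Of 14 tested small heat shock proteins, chaperones that bind unfolding proteins without using ATP, 1 rose and 11 fell on average over lines. Their median was -1.61, and the shares of all identifiers are those given for the heat shock factors. Os02g0782500 and Os03g0266900 were lowest, at -5.55 (SE 0.36, adjusted p = 8.42e-10) and -3.21 (SE 0.26, adjusted p = 1.43e-08), and Os03g0267200 was the one that rose, at 0.59 (SE 0.17, adjusted p = 0.00556).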

How the data were processed

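RNA abundance was read from 24 deposited tables, 1 per library. The authors' values are an abundance signal, named TPM per the file headers, in 1 column. Kallisto 0.46.2, sleuth 0.30.0 and the build IRGSP-1.0 are named in the submitters' processing notes, and the labels' protocols describe total RNA and strand-marking (dUTP) libraries. Trimming, filters and the annotation are not given in the sources used here. Because the column sums depart from the fixed total of a TPM column, the values were used as a signal on the authors' scale, and with no counts the depth and any counting interval are unknown.

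Each table has 44785 rows for 37910 identifiers. The 5399 identifiers on several rows hold each library's value repeated and shifted across the tables, and were read back by flattening the rows in the order Sasanishiki, Lambayeque1, PL9, Nipponbare, untreated before cold. Of 48 orders tried, that one restored all 5399, and the next best 5359. Of the 9 genes, 6 stand on several rows and rest on this step. No table column was left unused, and over identifiers on 1 row with values above 0 in both, 0% of values were exactly equal in any pair of libraries of a group.

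Identifiers that reached 1 in 3 or more libraries (27655, among them all 9 genes) were transformed as log2(value + 1), which understates changes of low genes. Group means of all 24 libraries were fitted in R 4.3.3 with lmFit and trended eBayes of limma 3.58.1. The computation was checked on simulated data with normal noise, as the fit assumes. That check cannot show whether the deposited values meet the assumptions. The Benjamini-Hochberg adjustment ran over all identifiers of a comparison (threshold 0.05). Comparisons were cold against untreated in each line, their average, and differences among lines in the response, the untreated level and the cold level, as F tests and 6 pairs. Python 3.11.15, pandas 2.3.3, numpy 2.4.6 and matplotlib 3.10.9 were used for tables and figures.

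The genes and lists were chosen with earlier results of these data known. All 9 genes are described. From each list, the text names the 2 genes with the largest positive and the 2 with the largest negative average response among those that passed, and for each of the 9 genes the 3 identifiers with the highest r. List members were assigned by identifier. Names were checked against the RefSeq table of assembly ASM3414082v1 by chromosome and relative gene order within 2%, and only those that agreed are printed: 3 of 20 other large chaperones, 0 of 10 co-chaperones, 1 of 7 folding genes of the endoplasmic reticulum, 13 of 25 heat shock factors and 0 of 16 small heat shock proteins. Promoter motifs had been planned and were not run, since no sequence was used here. Alternatives tried were pseudocounts of 0.1 and 5, no filter, 3 rescalings, a robust fit, a replicate block, fits of the compared lines alone, identifiers on 1 row alone, summed families, and leaving out each library.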

Additional observations from a re-analysis of the deposited data

Results flagged for a closer look

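Differences between lines in the cold response passed the test in 4 of 54 comparisons of 1 gene in 2 lines. For HSP81-1 they were Sasanishiki minus Lambayeque1, a log2 difference of 2.17 (SE 0.43, adjusted p = 0.00873), and Nipponbare minus Sasanishiki, -1.59 (SE 0.43, adjusted p = 0.0361). For BiP1 they were Nipponbare minus PL9, 1.84 (SE 0.36, adjusted p = 0.00585), and Nipponbare minus Lambayeque1, 1.69 (SE 0.36, adjusted p = 0.0328). Over all identifiers, the share that passed was 3.38%, 5.57%, 4.57% and 0.582% in these 4 comparisons, in the order given. For the other pairs of lines, in which none of the 9 genes passed, no share is given. The count of 4 in 54 thus cannot be set against all identifiers. The Sasanishiki minus Lambayeque1 difference of HSP81-1 passed under every alternative that kept it as a single gene. For the HSP90 sum that difference did not pass (1.18, SE 0.40, adjusted p = 0.112). The Nipponbare minus PL9 difference of BiP1 missed the threshold with these 2 lines alone (adjusted p = 0.0519) and in no other alternative. BiP1 and HSP81-1 stand in the same libraries, and Nipponbare lies on the high side in one and on the low side in the other.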

How the results depend on the processing

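Values of single genes, or the family sum in place of a member, were recomputed under 3887 alternatives of 117 results. Of these, 3648 kept their direction and side of the threshold, 173 lost the call, 47 gained one and 19 changed sign. The 5 sign changes of values that passed in the main fit all came from the HSP70 sum. With identifiers on 1 row alone, which leaves 3 of the 9 genes, the count of genes that passed fell to 2 in Nipponbare, 1 in Sasanishiki, 1 in PL9, 2 in Lambayeque1 and 3 on average. The response, untreated and cold F tests then called 1 gene each, and the pairs of lines 2, 4 and 2. With the compared lines alone, 1 gene passed in Sasanishiki and 2 response pairs. By quantile normalization 5 genes differed among untreated lines. Leaving out 1 library at a time gave 3 to 7 genes in Lambayeque1 (3 without its untreated library 3), 2 to 6 response pairs and 2 to 5 genes for untreated lines. The share of all identifiers that passed under each alternative is not given, so these counts cannot be set against it.

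Outside PL9 the replicate numbers showed no pairing of the libraries. In all lines together, deviations of same-numbered untreated and cold libraries correlated between -0.40 and 0.12, over 0.1 in 2 of 12 pairs. In PL9 each untreated library correlated best with the cold library of its own number, at a low r (0.12, 0.08 and 0.11). With a replicate block 0 genes differed in response by the F test (HSP81-1 adjusted p = 0.0644, BiP1 0.0616, against 2 genes without it) and 2 response pairs passed against 4, with HSP81-1 Nipponbare minus Sasanishiki at 0.0927 and BiP1 Nipponbare minus Lambayeque1 at 0.162. The block also ended the calls of Os09g0482600 in Lambayeque1 (0.0545) and of Os08g0197700 on average (0.0694), and the F tests for HSP81-1 in the cold (0.033) and untreated Os05g0460000 (0.0333) passed with it. The share of all identifiers that passed with the block is not given, so these changes cannot be called particular to the genes named. Of 12 untreated libraries 3, all from PL9, correlated best with the cold library of their own number. That is a hint from the data and not from the design.

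Signs changed as follows. The value of Os09g0482600 in Sasanishiki, 0.00491, became -0.00185 by median-of-ratios scaling, -0.136 at the same total, -0.00143 for the HSP90 sum, as for HSP81-1, and -0.0363, -0.207 and -0.144 without Sasanishiki untreated 1, untreated 2 and cold 2. The HSP70 sum gave 0.44 in Nipponbare, 0.45 in Sasanishiki, 0.17 in Lambayeque1 and 0.20 on average, against negative values of Os05g0460000 and Os03g0821100, because Os11g0703900 makes up most of it. In PL9, Os09g0482600 and Os03g0821100 became 0.23 and 0.0213 without cold library 2, and Os11g0703900 became 0.25 without it and 0.26 without untreated library 1, while the lowest values of these genes with 1 library left out were -0.38, -0.29 and -0.25. Where no value is given for a change, the cause was not tested. Unknown depth limits what can be said of Os04g0107900, near 0 in most cold libraries.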
